A study of Mus musculus with 8 samples.

Results

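Schwann cells are the glia of peripheral nerves, and in the heart they ensheath the sympathetic, parasympathetic and sensory axons that run through the muscle. Most cardiac axons are bundled by non-myelinating Schwann cells, while a minority carry a myelin sheath. The transcription factor SOX10 holds these cells in the glial fate and drives their myelin genes, and the cells receive survival signals from axons through neuregulins and neurotrophins. The 5 genes described here mark that lineage: Sox10, Cdh19, Mbp, S100b and Ngfr. They were chosen by name, with earlier results of these data known, and all 5 were found among the 17191 genes of the deposited table.

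RNA of whole hearts was sequenced from 2 groups of mice, both after TAC, in which the transverse aorta is constricted so that the left ventricle pumps against a raised pressure for 4 weeks. One group carried STAT3 S727A, a form of the transcription factor STAT3 whose serine phosphorylation site is replaced by alanine (4 libraries), and the other was wild type (WT, 4 libraries). No group without TAC was analysed here, and the labels give no sex, age, strain or way in which the allele was made. Nor do they tie libraries to separate mice, and the p-values below therefore reflect differences among libraries, which may be technical. All libraries are labelled as 1 batch. The question was how this site of STAT3 alters the heart under load.

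The total count per library was 10577619 to 13305124. The tissue was heart by its markers, with Myh6, the adult myosin heavy chain, at 5179 to 8516 FPKM in each library (FPKM, reads scaled for transcript length and library size). CPM, used below for a gene across libraries, are counts scaled for library size alone. Stat3 itself averaged 164 ± 6.74 CPM in S727A hearts and 201 ± 23.2 CPM in WT hearts (SD, n = 4 each). The mutation alters a codon, so this level is no check of the labels. Reads of airway genes such as Scgb1a1 numbered 1535 in WT 1 and 822 in WT 4, against at most 30 in any other library. The library S727A 4 held 9 reads of Y-linked genes and WT 4 held 6, while the others held at least 1940. Over all genes tested, 19 of 12998 were called at an adjusted p under 0.05 in edgeR's quasi-likelihood test.

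The Schwann cell genes were scarce transcripts. Cdh19 averaged 1.42 ± 0.42 FPKM and Mbp 1.38 ± 0.62 FPKM over the 8 libraries (SD). S100b averaged 0.64 ± 0.12, Sox10 0.62 ± 0.32 and Ngfr 0.28 ± 0.07 FPKM (SD, n = 8). Of all tested genes, 15.7% had a lower mean FPKM than Cdh19 and 1.67% a lower one than Ngfr. The neighbours in this order were not all apart. Cdh19 was above Mbp in 2 of 4 S727A and 1 of 4 WT libraries. S100b was above Sox10 in 3 of 4 S727A libraries and equal to it in the other, but in 1 of 4 WT libraries. Because a whole heart was sampled, fewer Schwann cells and less RNA per Schwann cell cannot be told apart in any value below.

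Between genotypes, none of the 5 genes passed the test (edgeR, 0 of 5, where 0.146% of all genes were called). DESeq2 and limma voom also called 0 of 5, where they called 3.0% and 0.0462% of all genes. All 5 had a log2 fold change below 0, as had 50.6% of all genes, with a median of -0.38 against -0.0034 over all genes. One of them, Sox10, had an unadjusted p under 0.05, and 8.79% of all genes did so in the lower direction. In none of the 5 did the groups separate, whereas 4.36% of all genes lay lower in every S727A than in every WT library. All 5 genes had their highest level in the same library, WT 2.

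**Figure D1:**
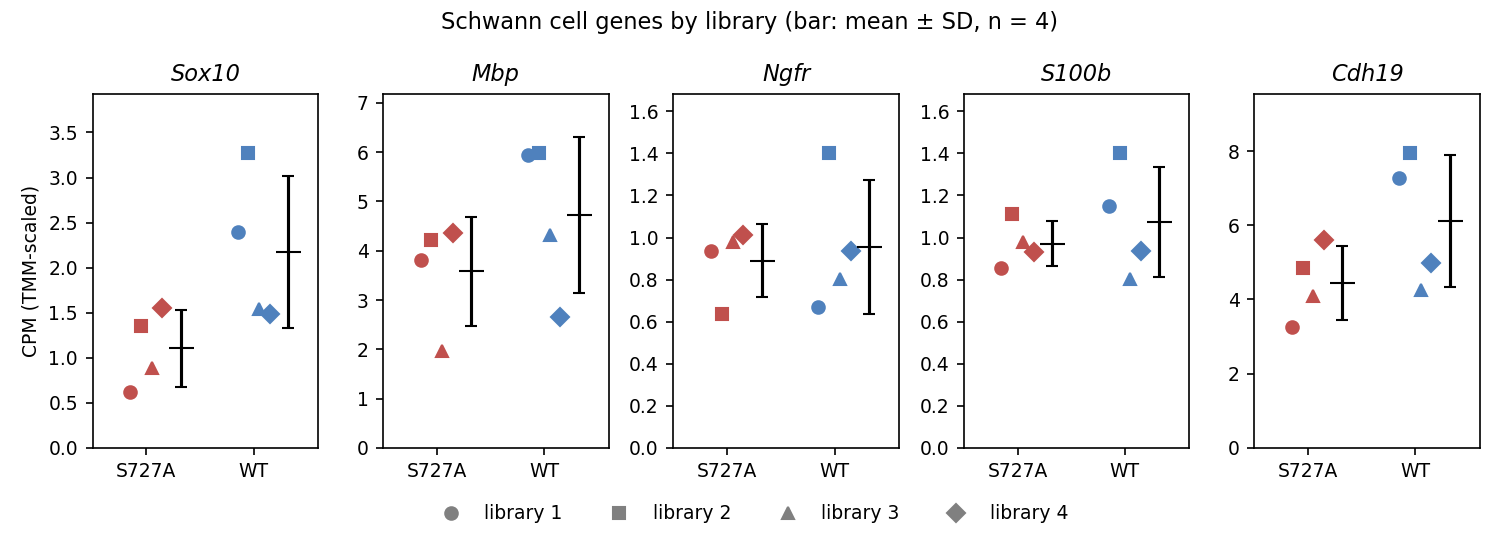
CPM on TMM-scaled libraries (y axis, from 0) of each Schwann cell gene, with one symbol per library in S727A (red) and WT (blue) and black bars for the mean ± SD of 4 libraries. WT 2 (blue square) is the highest point in every panel, and the groups overlap in all 5.

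Sox10 (gene 20665, chromosome 15, 79154913 to 79164490, GRCm38.p6) encodes the transcription factor that specifies and maintains Schwann cells. It had 8, 17, 10 and 20 reads in S727A 1 to 4, against 25, 35, 21 and 19 in WT 1 to 4. Scaled for depth these were 0.62, 1.35, 0.89 and 1.55 CPM in S727A and 2.40, 3.28, 1.54 and 1.48 CPM in WT. The WT group was split, with WT 1 and WT 2 above every S727A library and WT 3 and WT 4 just below S727A 4. The mean CPM was 1.10 ± 0.42 in S727A libraries and 2.17 ± 0.85 in WT libraries (SD, n = 4 each). The log2 fold change was -0.95 ± 0.37 (SE), with a 95% interval from -1.74 to -0.15, and it did not pass (edgeR adjusted p = 0.215). A fold change this low or lower was seen in 1.08% of all genes. In the authors' deposited table the log2 ratio of Sox10 is -0.96 with a q-value of 0.256.

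Counting error was part of the spread in these values, and the spread was larger than counting error in both groups. The exact 95% Poisson interval of the 8 Sox10 reads in S727A 1 runs from 3.45 to 15.8, and that of the 35 reads in WT 2 from 24.4 to 48.7; such intervals cover counting error only. The coefficient of variation of Sox10 CPM was 38.4% in S727A and 39% in WT, where counting alone gives 27% and 20%. Without WT 2 the log2 fold change was -0.68 (edgeR adjusted p = 0.468).

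Cdh19 (gene 227485, chromosome 1, 110888002 to 110977601), a cadherin of the Schwann cell lineage and its precursors, was the member with the most reads. Its levels were 3.27, 4.84, 4.10 and 5.59 CPM in S727A 1 to 4, against 7.28, 7.96, 4.25 and 4.99 CPM in WT 1 to 4. As for Sox10, WT 1 and WT 2 exceeded every S727A library while WT 3 and WT 4 lay among them. The log2 fold change was -0.45 ± 0.24 (SE), with a 95% interval from -0.97 to 0.08 (edgeR adjusted p = 0.355). Of all genes, 6.28% had a fold change this low or lower.

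Mbp (gene 17196, chromosome 18, 82475091 to 82585637) encodes myelin basic protein, which compacts the myelin sheath; other promoters of the same gene make golli transcripts, which are also found outside the nervous system. It was at 3.81, 4.21, 1.96 and 4.35 CPM in S727A 1 to 4 and at 5.94, 5.99, 4.32 and 2.65 CPM in WT 1 to 4. S727A 3 was the lowest library and WT 4 the next lowest. The log2 fold change was -0.38 ± 0.30 (SE), with a 95% interval from -1.04 to 0.27 (edgeR adjusted p = 0.534). Without S727A 3 it was -0.18, and without WT 4 it was -0.58.

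The length that the deposited values imply for Mbp was not constant. Dividing each count by its FPKM and the library total gives the transcript length that the 2 columns share for a gene. For Sox10 this was 2610 to 2680 bases in all 8 libraries, for S100b and Ngfr it varied by at most 1.04 times, and for Cdh19 by 1.14 times. For Mbp it was 3930, 2780, 3310 and 3190 bases in S727A 1 to 4 and 2630, 2600, 3580 and 3250 bases in WT 1 to 4, a range of 1.51 times. The groups overlap in this length, and the 3 shortest values were those of WT 2, WT 1 and S727A 2. A range of this size or more was seen in 0.451% of 11296 genes with at least 20 reads and 0.5 FPKM in every library, whose median was 1.02 times. GENCODE M21 lists 16 transcripts of Mbp, of which 14 are protein-coding with lengths of 354 to 4797 bases. Which of them the reads came from was not tested, and the per-length level of Mbp moves with this length: its FPKM averaged 1.10 ± 0.41 in S727A and 1.65 ± 0.73 in WT (SD, n = 4 each).

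**Figure D2:**
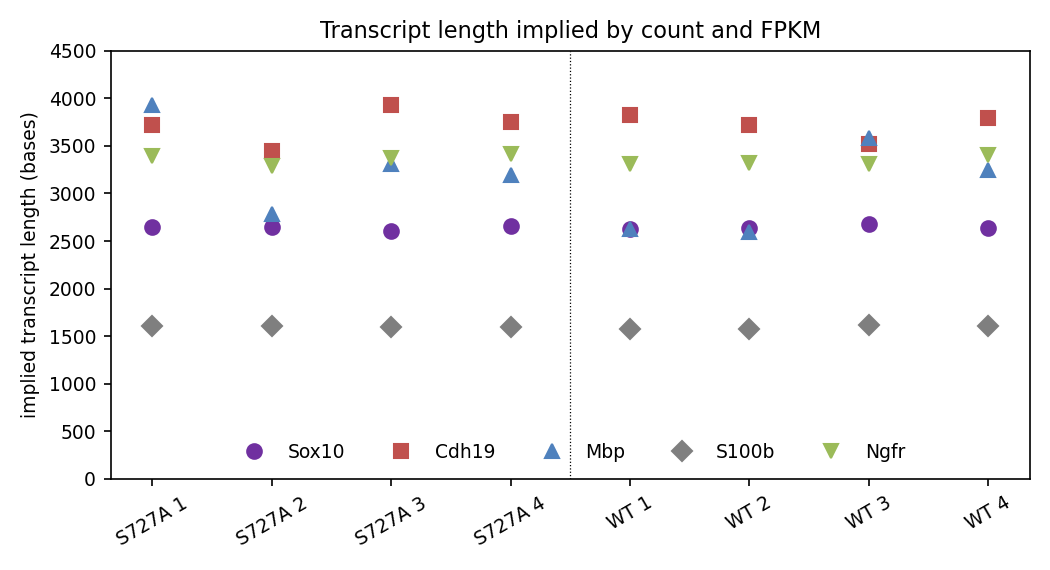
Transcript length in bases (y axis, from 0) implied by each gene's deposited count and FPKM, for each of the 8 libraries (x axis, S727A left of the dotted line). Mbp (blue triangles) runs from 2600 to 3930 bases, whereas Sox10 stays between 2610 and 2680 bases.

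The other members, S100b and Ngfr, had fold changes nearer to 0 and wide intervals. S100b (gene 20203, chromosome 10, 76253836 to 76261319) encodes a calcium-binding protein used as a general marker of Schwann cells, and fat cells make it too. It was at 0.86, 1.11, 0.98 and 0.93 CPM in S727A 1 to 4 and at 1.15, 1.40, 0.81 and 0.93 CPM in WT 1 to 4. The log2 fold change was -0.13 ± 0.30 (SE), with a 95% interval from -0.79 to 0.53 (edgeR adjusted p = 0.861). Ngfr (gene 18053, chromosome 11, 95568818 to 95587698) encodes p75, the low-affinity neurotrophin receptor of Schwann cells and autonomic neurons, and lies 5.3 Mb from Stat3. It was at 0.93, 0.64, 0.98 and 1.01 CPM in S727A 1 to 4 and at 0.67, 1.40, 0.81 and 0.93 CPM in WT 1 to 4. The log2 fold change was -0.09 ± 0.34 (SE), with a 95% interval from -0.83 to 0.64 (edgeR adjusted p = 0.919). Both intervals hold changes of more than 0.5 on the log2 scale in each direction, and the sign of both turned positive without WT 2 (0.022 for S100b and 0.13 for Ngfr).

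Neither of them varied between libraries by much more than counting predicts. S100b had 11 to 15 reads per library and a coefficient of variation of 11.1% in S727A and 24.4% in WT, where counting alone gives 28.9% and 28.3%. Ngfr had 7 to 15 reads and values of 19.4% and 33.5%, where counting gives 30.2% and 29.8%. Mbp, at 30.8% in S727A and 33.6% in WT against 14.9% and 13.5% from counting, and Cdh19, at 22.4% and 29.1% against 13.5% and 11.9%, varied more than that.

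These 2 of the 5 members, S100b and Ngfr, have an entry in the RefSeq promoter table (GRCm38.p6), and the 250 bases before their start sites are shown so that SOX-type letters, the kind of site that SOX10 binds, could be looked for in the members themselves. Capitals mark GGGCGG (the GC box) and CCAAT on either strand.
Ngfr, chr11:95587699-95587948, minus strand: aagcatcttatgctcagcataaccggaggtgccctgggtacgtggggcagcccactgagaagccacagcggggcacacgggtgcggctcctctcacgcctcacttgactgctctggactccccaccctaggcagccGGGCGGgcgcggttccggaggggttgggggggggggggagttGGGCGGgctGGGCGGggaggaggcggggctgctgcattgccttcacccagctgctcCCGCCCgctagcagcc
S100b, chr10:76253586-76253835, plus strand: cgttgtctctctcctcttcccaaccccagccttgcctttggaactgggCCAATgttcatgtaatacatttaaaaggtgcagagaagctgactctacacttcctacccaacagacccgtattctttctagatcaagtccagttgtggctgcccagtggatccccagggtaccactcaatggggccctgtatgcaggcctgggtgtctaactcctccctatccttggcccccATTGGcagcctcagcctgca

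The Ngfr window had a GC content of 70.4% and held 4 copies of GGGCGG, a motif found on either strand in 32.7% of the 32851 windows of this length. The S100b window had a GC content of 53.6% and held 2 copies of CCAAT, found in 33.8% of windows. The SOX-type letters ACAAAG (16.5% of windows) and AACAAT (9.42%) were in neither window, nor was TATAAA (12.4%). None of these motifs overlaps another in the windows shown. A match is a description of letters and says nothing of binding.

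The members were next compared with each other over the 8 libraries, which share their depth and tissue sampling between genes. All 10 pairs were examined on log2 CPM with exact permutation tests adjusted over the 10 pairs. Sox10 and Cdh19 varied together, with a Pearson r of 0.95 (exact permutation p = 0.000719, adjusted p = 0.00719) and a Spearman rho of 0.93 (p = 0.00223, adjusted p = 0.0223). Without the 2 libraries farthest from the median of Sox10 the r was 0.86, and the r of the deviations from each genotype's mean was 0.95. Sox10 and Mbp had an r of 0.68 (exact permutation p = 0.0622, adjusted p = 0.155) and a rho of 0.88 (p = 0.00724, adjusted p = 0.0362), so that this pair passed by rank alone; r was 0.87 without the 2 farthest libraries. S100b and Cdh19, with an r of 0.81, did not pass (exact permutation p = 0.0131, adjusted p = 0.0656). Nor did they by rank (rho 0.67, exact permutation adjusted p = 0.208), and r was 0.42 without the 2 libraries farthest from the median of S100b. Ngfr had an r between -0.03 and 0.28 with each of the other 4. Without the 2 libraries farthest from the median of Sox10, Ngfr had an r of -0.49 with Sox10. Without the 2 farthest from the median of Mbp it was 0.26 with Mbp. Without the 2 farthest from the median of Ngfr it was -0.55 with Cdh19 and -0.46 with S100b.

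**Figure D3:**
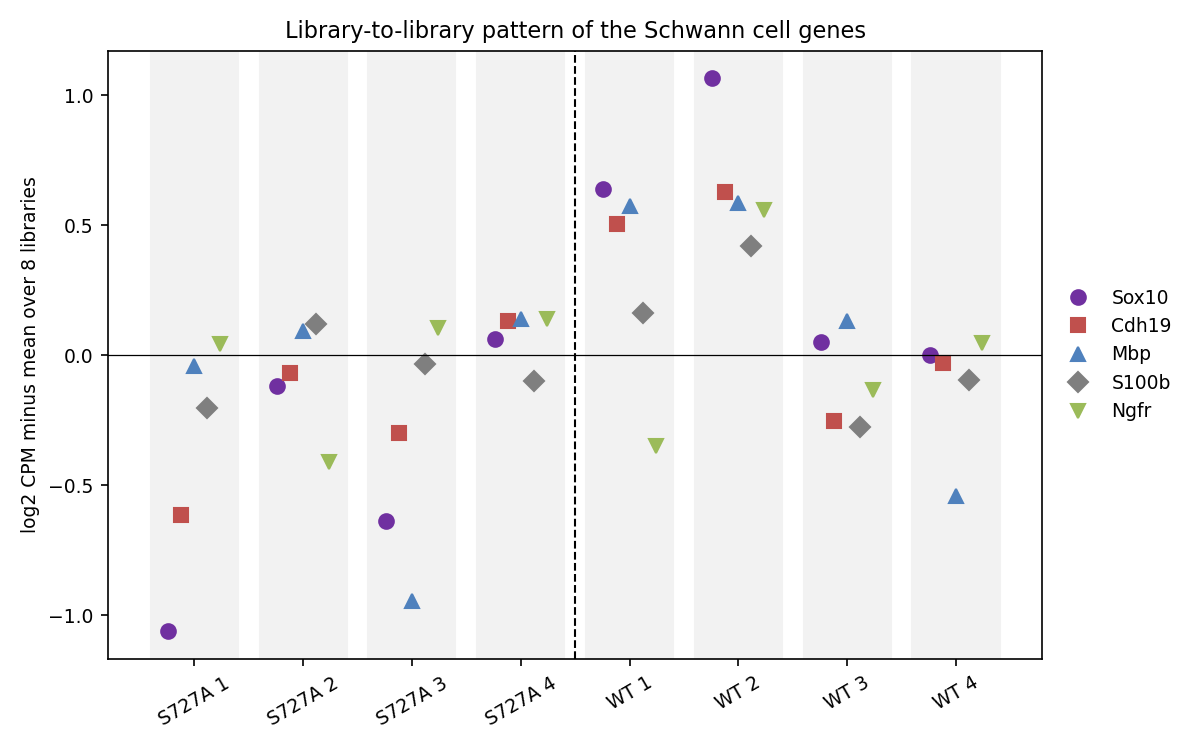
Log2 CPM of each Schwann cell gene minus its own mean over the 8 libraries (y axis), by library (x axis, S727A left of the dashed line). Sox10 and Cdh19 are both lowest in S727A 1 and highest in WT 2 (r of 0.95), all 5 genes lie above 0 in WT 2, and Ngfr departs from the others in WT 1 and S727A 2.

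Other genes used as markers of Schwann cells and satellite glia were read from a list of 31. All were in the table and 23 were tested, and 8 were too low. In edgeR 0 of 23 were called. Of them 16 had a log2 fold change below 0, as had 50.6% of all genes, and the median was -0.14. Kcna2, with the smallest p, encodes a potassium channel subunit that sits along axons beside the glial contacts. Its levels were 1.32, 0.87, 1.61 and 2.02 CPM in S727A 1 to 4, against 3.64, 5.71, 1.46 and 2.34 CPM in WT 1 to 4. Again WT 2 and WT 1 were the highest libraries and WT 3 lay among the S727A values. This split was not particular to glial genes. The myocyte gene Myh6 was at 51650 CPM in WT 1 and 48200 CPM in WT 2, against 30470 to 35350 CPM in the other libraries. The log2 fold change of Kcna2 was -1.15 ± 0.41 (SE), with an edgeR adjusted p of 0.192. Erbb3, the neuregulin receptor of Schwann cells, averaged 11.5 ± 2.27 CPM in the S727A and 14.3 ± 1.71 CPM in the WT libraries (SD, n = 4 each). Its log2 fold change was -0.30 ± 0.15 (SE), with an edgeR adjusted p of 0.321. Kcna2 was the single gene of the list with an unadjusted p under 0.05, where 8.79% of all genes were lower at that p.

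Some genes of that list with far more reads had fold changes near 0. Scn7a, a sodium channel-like gene of non-myelinating Schwann cells, had 1576 reads in S727A and 1598 in WT summed over libraries, and a log2 fold change of -0.08 ± 0.11 (SE). For Matn2, a matrix protein, it was 0.12 ± 0.10 with 1733 and 1539 reads, though such genes are also made by other cells of the heart. Scn7a and Matn2 were named after their values were seen.

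**Figure D4:**
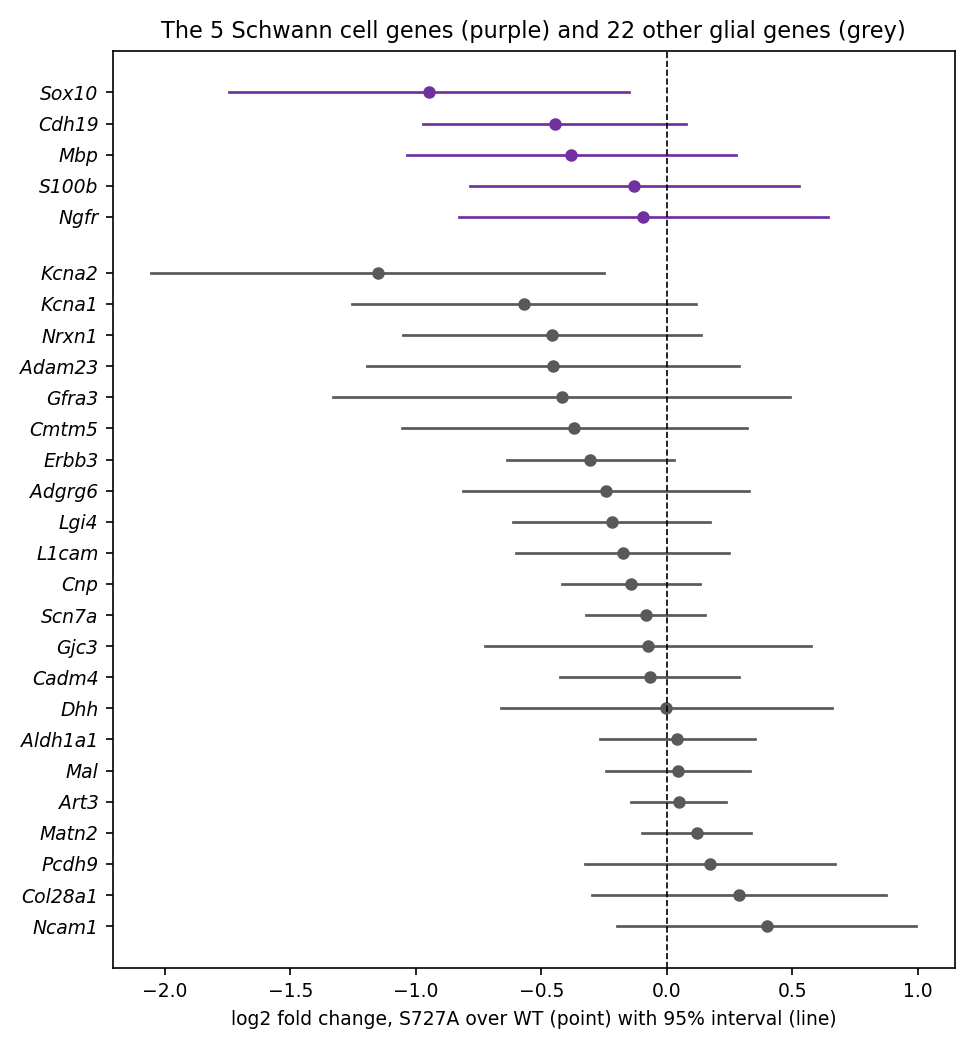
Log2 fold change of S727A over WT (points) with its 95% interval (lines) from edgeR for the 5 Schwann cell genes (purple) and 22 of the 23 tested genes of the wider glial list (grey), 1 of them not being reported here. The intervals of Sox10 and Kcna2 end below 0 before adjustment, and neither passed after adjustment over all genes.

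Myelin genes gave no common direction. Of 19 listed, 17 were in the table and 10 were tested, 6 with a log2 fold change above 0 and 4 below, with a median of 0.16 and 0 calls in edgeR (2 higher and 0 lower at an unadjusted p under 0.05, where 8.97% of all genes were higher). The 2 of smallest p were transcription factor genes that act in myelination. Egr2, which is also an immediate-early gene of many cell types, was at 6.69, 2.62, 22.1 and 3.65 CPM in S727A 1 to 4 and at 1.15, 1.12, 2.42 and 1.87 CPM in WT 1 to 4. All S727A libraries lay above all WT libraries, as for 529 of the 12998 genes tested, with S727A 3 by far the highest. The log2 fold change was 2.37 ± 0.74 (SE) without passing the test (edgeR adjusted p = 0.173). Pou3f1, likewise without overlap, had one of 0.90 ± 0.34 (SE), at an adjusted p of 0.205 in edgeR. Mag, an adhesion protein of myelin, had 5 reads in all S727A libraries together and 6 in all WT libraries. Mag was named after its values were seen.

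Signals that Schwann cells receive or send were covered by 24 genes, of which 18 were tested. Most are of the neuregulin, neurotrophin and GDNF families and their receptors, and Cntf, Lif, Sema3a and Efnb2 are signals of other families. In edgeR 0 were called, and the median was -0.12. At an unadjusted p under 0.05, 1 was higher and 4 were lower, where 8.97% of all genes were higher and 8.79% lower. The neuregulin gene Nrg1, a ligand of ERBB receptors, was at 8.95, 2.54, 7.49 and 7.69 CPM in S727A 1 to 4 and at 1.44, 1.97, 4.32 and 2.41 CPM in WT 1 to 4. S727A 2 lay below WT 3, so the groups overlap, and the log2 fold change was 1.37 ± 0.42 (SE), at an edgeR adjusted p of 0.157. Its relative Nrg2 had the opposite sign, at 3.19, 2.86, 1.87 and 3.5 CPM in S727A 1 to 4 against 4.50, 7.21, 4.03 and 4.28 CPM in WT 1 to 4. There the groups did not overlap, where 4.36% of all genes lay lower in every S727A than in every WT library. The log2 fold change of Nrg2 was -0.80 ± 0.25 (SE), at an edgeR adjusted p of 0.161.

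Relatives of the members were compared as families. Among 19 SOX genes and partner factors, 15 were tested, 8 above and 7 below 0 with a median of 0.12 and 0 calls. Before adjustment 4 were higher and 2 lower, where 8.97% of all genes were higher and 8.79% lower. Hdac1, a histone deacetylase that acts with SOX10, had the smallest p (0.31 ± 0.10, SE, edgeR adjusted p = 0.164), followed by Egr2. Of 9 other S100 genes 7 were tested, and all 7 had a log2 fold change above 0, with a median of 0.29 and 0 calls (4 higher before adjustment, against 8.97% of all genes). The smallest p values were those of S100a13 (0.37 ± 0.10, edgeR adjusted p = 0.132) and S100a10 (0.63 ± 0.22, SE, adjusted p = 0.196). Whether S100b differs from them was not tested. Of 13 other cadherins 6 were tested, 3 on each side of 0, with a median of -0.01. Those of smallest p were Cdh20 (-0.35 ± 0.30) and Cdh6 (-0.46 ± 0.47, SE), with edgeR adjusted p of 0.562 and 0.648. Cdh2, the cadherin of the myocyte junction, was at 97.9 to 126 FPKM, against 0.86 to 2.12 FPKM for Cdh19, and was named after its values were seen.

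The members are not unique to Schwann cells, and markers of the other cells that use them were read beside them. Oligodendrocytes, which make Mbp and Sox10 in the brain, were read from 7 markers, of which 4 were in the table and none had enough reads to be tested. Mog, a protein of central myelin, had 0 reads in all S727A libraries and 1 in all WT libraries, and Mobp had 1 and 3. Olig1 had 7 reads in S727A and 0 in WT. Cldn11, which other cell types also make, had 28 reads in S727A and 30 in WT, with 4 to 11 per library. Of 7 melanocyte markers, which also go with Sox10, 3 were tested, all below 0 with a median of -0.30 and none with an unadjusted p under 0.05. Pmel stayed at or under 0.31 FPKM, while Dct was at 2.27 to 4.62 FPKM in S727A and 2.37 to 6.20 FPKM in WT. The summed melanocyte list was at 13.33 to 18.92 FPKM in S727A and 16.76 to 19.29 FPKM in WT. Most of that sum was Mitf, at 8.47 to 12.86 FPKM in S727A and 10.56 to 14.67 FPKM in WT. The sum thus follows mostly that gene rather than Pmel or Dct.

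Adipocyte transcripts were uneven. Adipoq, Plin1 and Cidec, which define fat cells, had together 29, 16, 10 and 24 reads in S727A 1 to 4, against 22, 148, 8 and 209 in WT 1 to 4. They were therefore high in WT 2, where S100b was also highest, and in WT 4, where it was not. Over the whole list of 11, the sum was at 508 to 649 FPKM in S727A and 498 to 667 FPKM in WT, and of 5 tested genes 4 were below 0. Most of that sum was Fabp4, at 435 to 557 FPKM in S727A and 403 to 572 FPKM in WT. The sum thus follows mostly that gene rather than Adipoq, Plin1 and Cidec. The part of adipocyte transcripts in the S100b values was not tested by itself. Without WT 2 and WT 4 the log2 fold changes were 0.0067 for S100b, 0.26 for Ngfr and -0.81 for Sox10. They were -0.36 for Cdh19 and -0.50 for Mbp. Without WT 2 alone that of S100b was 0.022, and without WT 4 alone it was -0.19.

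Most markers of neurons had too few reads to test. Of 29 markers of cardiac neurons 7 were tested, 4 above and 3 below 0 with a median of 0.09 and 0 calls. Before adjustment 2 were higher, where 8.97% of all genes were. The list summed to 83.7 to 115 FPKM in S727A and 54.8 to 85.1 FPKM in WT. Most of that sum came from Hand2, a transcription factor gene that heart muscle also uses, at 45.3 to 74.7 FPKM in S727A and 29.1 to 56.7 FPKM in WT, and from Uchl1, at 22.3 to 57.2 and 10.5 to 20.7 FPKM. The sum is therefore no measure of neuron content. Uchl1, a ubiquitin hydrolase of neurons and other cells, had a log2 fold change of 1.09 ± 0.33 and Tubb3, a neuronal tubulin, of 0.80 ± 0.36 (SE), with edgeR adjusted p of 0.17 and 0.268. Th, the rate-limiting enzyme of noradrenaline synthesis, had 1 read in all S727A and 1 in all WT libraries. A set of 6 synaptic, axonal and cholinergic genes (Snap25, Syt1, Prph, Chat, Slc18a3 and Slc5a7), chosen after their values were seen, had 3, 0, 1 and 2 reads in S727A 1 to 4 and 1, 25, 2 and 9 in WT 1 to 4. WT 2, the library in which all 5 Schwann cell genes were highest, thus also had the most of these reads, and their part in the result was not tested.

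Nerves are denser in the atria than in the ventricles, and atrial markers were therefore read too. Of 12 such genes 11 were tested, 8 of them below 0, as were 50.6% of all genes, with a median of -0.28 and 0 calls. Before adjustment 3 were lower, where 8.79% of all genes were. The sum was at 468 to 556 FPKM in S727A and 406 to 663 FPKM in WT. Pam alone gave 324 to 335 FPKM of it in S727A and 245 to 343 FPKM in WT. Kcnj3, a potassium channel of atrial myocytes, had a log2 fold change of -0.77 ± 0.21 and Stard10 of -0.73 ± 0.24 (SE), with edgeR adjusted p of 0.136 and 0.173. With the mean of these markers as a term in the fit, the log2 fold change was -0.79 for Sox10 (edgeR adjusted p = 0.587), -0.36 for Cdh19 and -0.40 for Mbp, and 0.30 for Ngfr. Of 4 ventricular and general myocyte genes 2 were below 0 (median -0.11), and of 4 genes of the load response all 4 were above 0 (median 0.87), with 0 calls among either.

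Airway transcripts marked WT 1 and WT 4. Of 11 airway genes 0 passed the filter, and the list summed to 0.17 to 1.49 FPKM in S727A and 0.49 to 287 FPKM in WT. WT 1 was high for Sox10, Cdh19 and Mbp and WT 4 was not. Without both, the log2 fold changes were -1.09 for Sox10, -0.44 for Cdh19 and -0.51 for Mbp. The 4 Y-linked genes had a median of -0.06, and without S727A 4 and WT 4 the log2 fold change of Sox10 was -1.31 (edgeR adjusted p = 0.104).

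Finally, genes were ranked by how closely they followed the members. The mean log2 CPM of the 5 genes was taken as deviation from its genotype's mean in each of the 8 libraries, and 12011 mRNA genes were ordered by their Pearson r with it. Zfp217, a zinc finger gene, came first with 0.98, followed by Cybrd1, an iron reductase gene (0.98), Nbr1, an autophagy receptor gene (0.97), Tmod4, a tropomodulin gene (0.96), and Zfp14 (0.96). Zfp729b, Zfp74, Abcd2, Zkscan7 and Zfp780b followed with 0.95 to 0.96. None of these 10 stands in the glial lists. Among 18 ranked genes of the wider glial list the closest was Adam23, at rank 443, and their median r was 0.23 against -0.01 over all genes. The atrial marker Stard10, at rank 58, and the myocyte gene Myh6, at rank 439, came ahead of Adam23. As 8 libraries were ranked against 12011 genes, and 53 genes had an r of at least 0.9, these are descriptions without a test.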

How the data were processed

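Counts and FPKM of 8 heart libraries came from 1 deposited table. Per the file headers and values, the authors deposited estimated counts, of which 6.06% to 7.62% per library were not whole (tolerance 1e-06), and FPKM per gene. Per the file headers, the authors also deposited a log2 ratio, a p-value and a q-value for each gene; the software behind them and behind the counting is not named in the sources used here. FastQC, HISAT2 and Bowtie2, with the build GRCm38.p6, come from the submitters' processing notes. Trizol extraction and stranded mRNA libraries are stated per the labels' protocols.

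Groups came from sample titles. Counts were rounded, and 12998 genes passed filterByExpr (minimum count 10, total 15). The test was edgeR 4.0.16 in R 4.3.3 (TMM, robust, legacy quasi-likelihood, two-sided) with Benjamini-Hochberg adjustment over all genes. Standard errors came from the F statistic, and log2 CPM used a prior count of 2. The procedure was tested on simulated data. limma 3.58.1 and DESeq2 1.42.0 were alternatives. Coordinates and promoters are RefSeq's. The members and lists were chosen with earlier results of these data known. Named genes were the 5 members, Stat3 and, per list, up to 4 called genes or else the 2 of smallest p; lists of other cell types were read by defining or abundant genes. Precision is set by the counts given. Some genes of the lists are counted but not reported here by name.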

Additional observations from a re-analysis of the deposited data

Results flagged for a closer look

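Within groups of 4 libraries, a value was marked where its gap to the next exceeded Dixon's critical share of the group's range. Of 50 such groups 5 were marked, where chance marks about 1 in 20. None was a level of a Schwann cell gene.

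In S727A 4 the list of cardiac neuron genes summed to 83.73 FPKM, against 111.2 to 114.8 FPKM in S727A 1 to 3. Of this sum 49.5 FPKM were Hand2 and 22.3 FPKM Uchl1, which other heart cells also express. In the same library the sum of 4 myocyte genes was 22650 FPKM, against 21600 to 21700 FPKM in the others. Y-linked genes summed to 0.31 FPKM in S727A 4, against 49.48 to 56.63 FPKM in the other S727A libraries. They summed to 0.18 FPKM in WT 4, against 52.36 to 59.57 FPKM in the other WT libraries. The transcript length implied for Ngfr was 3400 bases in WT 4, against 3310 to 3320 bases in WT 1 to 3. It rests on rounded FPKM of 0.2, 0.42, 0.25 and 0.28 in WT 1 to 4. Rounding at this level moves the implied length, and its part was not tested.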

How the results depend on the processing

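Sox10, Cdh19 and Mbp kept a log2 fold change below 0 and no call under all 21 alternatives. The values ran from -1.31 to -0.36 for Sox10, with adjusted p of 0.104 to 0.587, from -0.66 to -0.26 for Cdh19 and from -0.69 to -0.18 for Mbp. The ends of -0.36 and -0.26 came from log2 FPKM with a pseudocount of 1, which shrinks a log2 ratio at such low levels. With a pseudocount of 0.1 Sox10 was at -0.84 and Cdh19 at -0.43. The lowest and highest with 1 library left out were -1.16 and -0.68 for Sox10, -0.59 and -0.30 for Cdh19 and -0.58 and -0.18 for Mbp. Ngfr turned positive with the atrial covariate (0.30) and without WT 2 and WT 4 (0.26), and ran from -0.22 to 0.13 with 1 library left out, being 0.13 without WT 2 and 0.038 without S727A 2. S100b turned positive without WT 2 and WT 4 (0.0067) and ran from -0.25 to 0.022 with 1 library left out; the cause was not tested. Both were too low for the filter of 1 CPM in 4 libraries.

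The number of genes called moved more. It was 19 in edgeR, 513 in DESeq2, 6 in limma voom, 6 and 4 on log2 FPKM with pseudocounts of 1 and 0.1, 0 with the atrial covariate and 2 with the replicate block. It was 242 without S727A 4 and WT 4, 0 without WT 1 and WT 4 and 4 without WT 2 and WT 4 (added after seeing the data). With 1 library left out it ran from 0 (without S727A 1, S727A 3 or WT 1) to 617 (without S727A 4). At an unadjusted p under 0.05 the counts were 2308 at first, 1200 with the covariate and 1307 without WT 1 and WT 4.

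Replicate numbers did not pair the libraries: same-numbered deviations correlated at -0.06 to 0.13 over 2000 variable genes, and 2 of 8 libraries were closest to their own number. With that block Sox10 was at -0.95 (adjusted p = 0.259). S100b and Ngfr had 7 to 15 reads per library, and changes inside their intervals were not detectable at this depth.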
